A study of Sus scrofa with 4 samples.

Results

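The genes described here are the TGF-beta and BMP ligands, their receptors, secreted antagonists, SMAD transducers and ID genes of the pig, followed in porcine pancreatic ductal organoids (PPDO) and in the cell classes of primary porcine pancreas. They were picked by a rule on gene symbols, set with earlier results of these data known, and 51 of 30282 genes in the feature tables matched. They comprised 3 TGF-beta ligands, 8 BMP ligands, the protease BMP1, 9 GDF ligands, 4 activin subunits, 7 type I receptors, 3 type II receptors, the coreceptor TGFBR3, 3 BMP antagonists, 6 receptor-regulated or common SMADs, 2 inhibitory SMADs and 4 ID genes. BMPR2, the type II receptor of most BMPs, did not match the symbol rule and was kept with the other pathway genes.

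Most ligands of this superfamily, though not all, bind pairs of type I and type II serine/threonine kinase receptors, which phosphorylate SMAD proteins. TGF-betas and activins act mainly through SMAD2 and SMAD3, and BMPs through SMAD1, SMAD5 and SMAD9, with SMAD4 as the common partner. SMAD6 and SMAD7 feed back on the receptors, and the ID genes, which encode inhibitors of basic helix-loop-helix factors, are well-known BMP targets. Noggin binds BMP ligands and keeps them from their receptors.

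The study grew PPDO as epithelial cultures from hand-picked pancreatic ducts. The medium included WNT3a, R-spondin, noggin, EGF, FGF10, gastrin, prostaglandin, nicotinamide, N-acetyl-cysteine and A83-01. A83-01 is an inhibitor of the type I receptor kinases for TGF-beta and activin. For maintenance of PPDO, by the methods, an L-WRN conditioned medium took the place of added WNT3a, R-spondin and noggin. All animals were of German landrace background. The 2 PPDO lines differed in the age of the pig and in passage number, but neither can be assigned to a library from the labels. By the paper's account, most of their cells had by then left the mature ductal state with passaging. The comparisons with PPDO therefore describe such passaged cultures. Primary pancreas came from 2 pigs of the late postnatal stage and had no culture step. According to the methods, picked ducts were used for a wild-type preparation, and sorted and whole cells of an INS-eGFP reporter animal were pooled for the other. Organoid culture, medium and group therefore coincide in every comparison with PPDO, and cannot be told apart. Each test of PPDO rests on 2 against 2 sums, each from 1 line or 1 animal.

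Single-cell RNA sequencing gave 366263520 and 316018482 UMIs (unique molecular identifiers, counted molecules) in PPDO 1 and 2, and 87043513 and 138928395 in primary pancreas 1 and 2. Libraries shared 10 to 23 cell barcodes. Kept cells numbered 8885 and 7337 in PPDO, and 5671 and 4261 in primary pancreas. Primary cells were clustered without the member genes and named by marker lists as ductal-like (2165 and 1188 cells), acinar-like, endocrine-like, endothelial-like, immune-like, stellate-like and schwann-like. Levels are given as CPM, UMIs per 1000000 UMIs of the summed cells of a library and class. CFTR, one of the markers used to name the ductal-like class, was at 952 and 795 CPM in its sums and at 1.04 and 0.636 CPM in PPDO. The basal keratin KRT5 was at 5420 and 7634 CPM in PPDO against 0.324 and 0.276 CPM in ductal-like cells. Counts were not corrected for free RNA, and INS, the beta cell hormone gene, was at 99.5 and 7752 CPM in the ductal-like sums of primary pancreas 1 and 2 and at 0.189 and 0.175 CPM in PPDO. The endothelial marker PECAM1 stood at 69.4 and 28.0 CPM in ductal-like cells, 16.2 and 10.9 CPM in PPDO and 2248 and 2374 CPM in endothelial-like cells. The 10 endothelial markers summed to 110 and 67.5 CPM in ductal-like and 6439 and 6862 CPM in endothelial-like cells. The part of free RNA in low ductal-like values was not tested. Different clusters filled the ductal-like class in each animal, with 1107 of its 1188 cells of primary pancreas 2 in a cluster that held 1 cell of primary pancreas 1. Endothelial-like cells also split, with 680 of 1073 cells of primary pancreas 1 in a DYSF- and FLT1-led cluster and 192 of 264 cells of primary pancreas 2 in a BTNL9-led one. Primary libraries were clustered with no adjustment between them, whereas genes were scaled within each library for PPDO. The part of this choice in the splits by animal was not tested.

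Most of the pathway was expressed in PPDO or in the pancreas, but its parts were spread over different cells. Of the 51 members, 39 reached a mean of 10 CPM in PPDO or in at least 1 named primary class, and values are given for these. The other 12 included BMP10, BMP15, GDF2, GDF3, GDF5, GDF6, GDF7, INHBC, INHBE, NOG and GREM1. Of these, 9 had group means under 1 CPM throughout, BMP10, GDF6 and GREM1 had highest means of 1.18, 3.17 and 8.95 CPM, and INHBE had no UMI in these sums. Levels of the same gene were close in both PPDO libraries. Among 23 members with at least 10 CPM in PPDO, 20 lay within 1.5-fold between PPDO 1 and 2, with a median ratio of 1.10 and a highest ratio of 1.63 for TGFBR3. Among 17 such members in ductal-like cells, 13 lay within 1.5-fold, and ID1 had the highest ratio of 3.77.

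**Figure D1:**
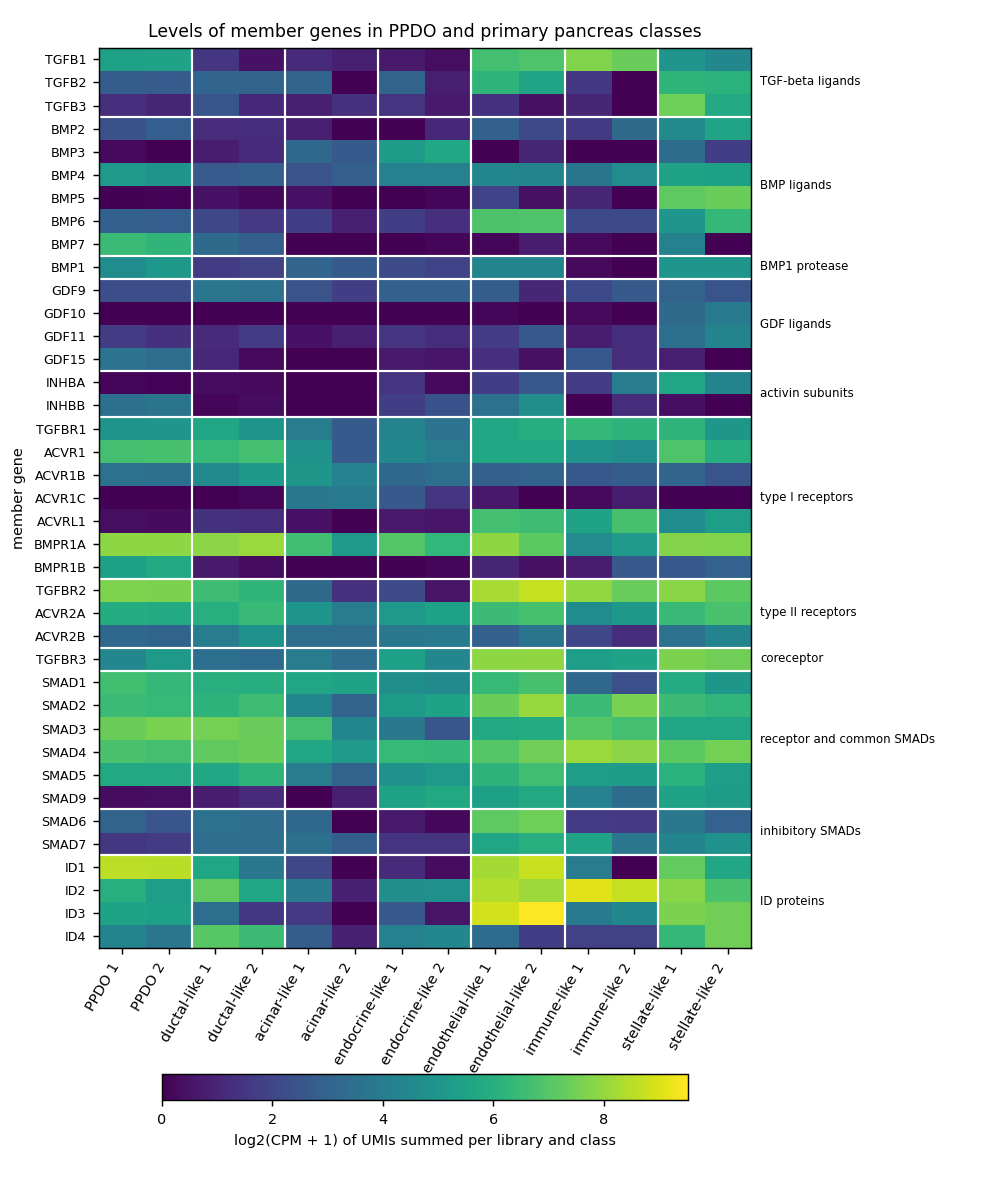
Levels of the 39 members with at least 10 CPM in a group, as log2(CPM + 1) of UMIs summed per library (columns, libraries 1 and 2 of PPDO and of each primary class) and ordered by role (rows). Endothelial-like columns are bright for BMP6, ACVRL1, TGFBR3, SMAD6, ID1 and ID3, stellate-like columns for TGFB3 and BMP5, and PPDO columns for BMP7, BMPR1B and ID1.

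To ask how the pathway in duct-derived cultures differed from that in primary ductal-like cells, their sums were compared. The ductal markers summed to 940 and 846 CPM in PPDO and to 27914 and 31894 CPM in ductal-like cells. Ligands BMP7, BMP4 and TGFB1, the receptors BMPR1B and TGFBR2 and the target gene ID1 were higher in PPDO, while ID4, SMAD7 and the activin receptors ACVR1B and ACVR2B were lower. The filter on low counts left 42 members, and edgeR's quasi-likelihood test with Benjamini-Hochberg adjustment over all 23539 genes called 16 of them higher and 10 lower in PPDO at 0.05. Over all genes tested, 22.9% were called higher and 20.9% lower, or 43.8% in either direction, and no test was made of the members as a list. The median log2 fold change was 0.11 over the 42 members and 0.0064 over all genes. Among the called members, only SMAD2 had overlapping CPM between the groups. Non-overlap was not counted over all genes, so it is no result about these members as a list. Fold changes are relative to the trimmed mean of genes (TMM), and without TMM factors the median over all genes was -0.45. ACVR1, SMAD1 and SMAD2 were then not called.

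**Figure D2:**
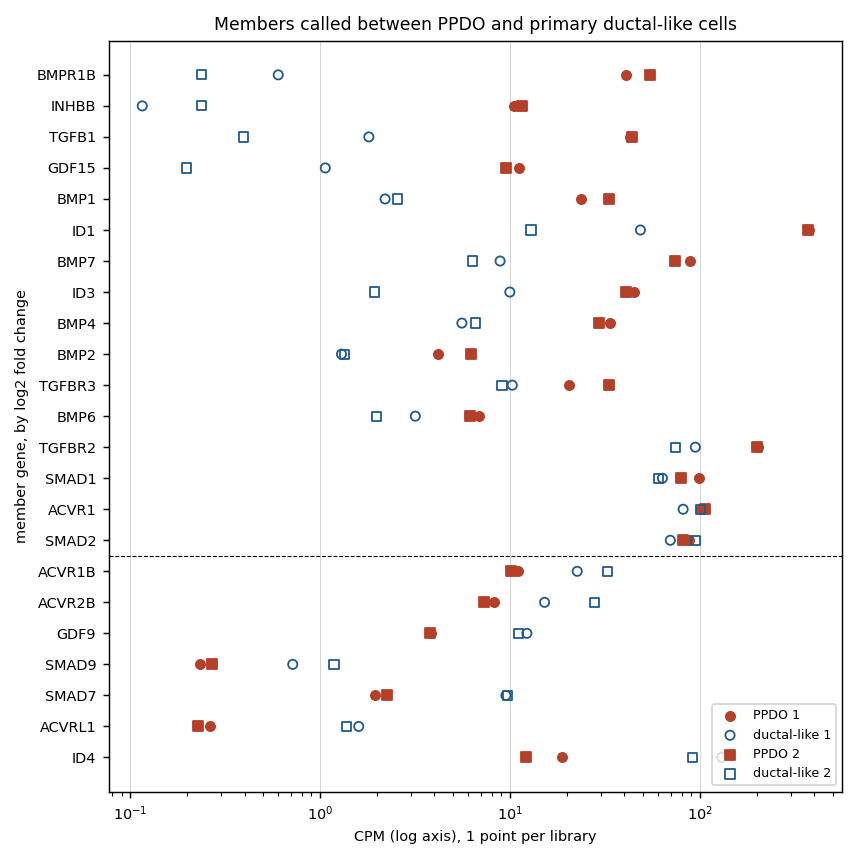
CPM per library, on a log axis, of the 23 members that were called between PPDO (filled symbols) and primary ductal-like cells (open symbols) and reached 10 CPM in a group, ordered by log2 fold change from BMPR1B at the top to ID4 at the bottom. Genes above the dashed line were called higher in PPDO and those under it lower, and both groups overlap for SMAD2 alone.

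Among the TGF-beta ligands, TGFB1 was at 42.8 and 44.1 CPM in PPDO 1 and 2, against 1.80 and 0.394 CPM in ductal-like cells of primary pancreas 1 and 2. Its log2 fold change was 5.63 (SE 0.77, adjusted p 0.00597, edgeR), from a total of 24463 UMIs for PPDO and 88 UMIs for the ductal-like class. Because the 2 ductal-like sums were far apart, the log2 fold change moved to 7.32 without primary pancreas 1 and to 4.90 without primary pancreas 2. It was 4.57 when doublets were kept. TGFB2 stood at 6.01 and 5.79 CPM in PPDO and at 7.59 and 7.18 CPM in ductal-like cells, and was not called (log2 fold change 0.12, SE 0.22, adjusted p 0.681, edgeR). TGFB3 was at 1.41 and 0.999 against 4.51 and 1.14 CPM, with overlapping groups and no call.

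The BMP ligands of PPDO were BMP7, BMP4, BMP6 and BMP2, and each was called higher than in ductal-like cells. BMP7, a ligand of many epithelia, was at 89.1 and 73.8 CPM in PPDO and at 8.86 and 6.35 CPM in ductal-like cells (log2 fold change 3.84, SE 0.30, adjusted p 0.00152, edgeR). BMP4 was at 33.7 and 29.4 against 5.58 and 6.59 CPM, a log2 fold change of 2.84 with an SE of 0.16 (adjusted p 0.000775, edgeR). For both genes each PPDO library lay above each ductal-like sum. BMP2 was lower in level, at 4.17 and 6.20 against 1.30 and 1.34 CPM (log2 fold change 2.43). BMP6 stood at 6.83 and 6.17 against 3.17 and 1.97 CPM (log2 fold change 1.75). For BMP6, 63% and 60% of the UMIs in PPDO came from an extension of the annotated 3′ end, against 4% and 9% in primary pancreas, and without extensions its log2 fold change was 0.52 and the call ended. Keeping doublets also ended it, at 1.33. BMP3 and BMP5 were under 1.3 CPM in PPDO and ductal-like cells and were not called. BMP10 was called lower at 0.282 and 0.252 against 0.671 and 1.70 CPM, with 97.6% to 100% of its UMIs in each library from extensions. This call ended when the replicate number was added to the fit.

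BMP1 is a procollagen protease that carries a BMP name and is no ligand of these receptors. It was at 23.7 and 33.0 CPM in PPDO and at 2.20 and 2.56 CPM in ductal-like cells (log2 fold change 4.04, SE 0.27, adjusted p 0.00107, edgeR).

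GDF and activin ligands were few. GDF15, a stress-responsive cytokine of the family, was at 11.2 and 9.50 CPM in PPDO against 1.06 and 0.197 CPM in ductal-like cells (log2 fold change 4.34, SE 0.79, adjusted p 0.0132, edgeR). Here the extension took 72% and 78% of GDF15 UMIs in primary pancreas and 6% and 4% in PPDO, and the log2 fold change was 5.53 without extensions. Leaving out primary pancreas 1 and 2 in turn gave 6.24 and 3.59. INHBB, which encodes the beta B subunit of activins and inhibins, had 10.5 and 11.6 CPM in PPDO against 0.116 and 0.237 CPM in ductal-like cells (log2 fold change 6.51, SE 0.36, adjusted p 0.000751, edgeR). The extension held 63% and 68% of INHBB UMIs in PPDO and 75% and 81% in primary pancreas, and the log2 fold change was 7.35 without extensions, 7.64 at clustering resolution 1.0 and 5.82 without the EREG-led ductal-like cluster, with the call kept in each. GDF9 was lower in PPDO, with 3.85 and 3.78 against 12.3 and 11.08 CPM. INHBA was at most 0.231 CPM in the 4 sums and GDF11 between 1.23 and 2.20 CPM, and neither was called. GDF3 was called lower under 0.12 CPM in each sum, and that call ended when the replicate number was added to the fit.

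Type I receptors split by gene. BMPR1B, a BMP type I receptor (Ensembl ENSSSCG00000029621, chromosome 8, 124536648 to 125035841 in RefSeq's Sscrofa11.1 annotation), was at 41.0 and 54.5 CPM in PPDO and at 0.601 and 0.237 CPM in ductal-like cells. Its log2 fold change was 7.17 (SE 0.54, adjusted p 0.00143, edgeR), with no overlap between groups, and 8.19 without primary pancreas 1. Its paralog BMPR1A stood at 237 and 239.8 CPM in PPDO and at 234 and 274 CPM in ductal-like cells, where the groups overlapped and the gene was not called (log2 fold change 0.37, SE 0.12, adjusted p 0.0675, edgeR). ACVR1, a type I receptor for BMPs and activins, was called higher on a small difference, 102 and 106 against 81.5 and 100.4 CPM (log2 fold change 0.66). TGFBR1, the type I receptor for TGF-beta, was at 29.5 and 30.8 against 47.2 and 29.3 CPM and was not called. ACVR1B, the type I receptor for activins, was lower, at 11.01 and 10.1 against 22.6 and 32.5 CPM (log2 fold change -0.91, SE 0.17, adjusted p 0.0149, edgeR). ACVRL1, a receptor known from endothelium, was called lower at 0.262 and 0.229 against 1.60 and 1.38 CPM.

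Of the type II receptors, TGFBR2 was higher in PPDO, at 202 and 200.5 CPM against 94.5 and 74.0 CPM (log2 fold change 1.69, SE 0.24, adjusted p 0.00626, edgeR). ACVR2B, an activin and BMP receptor, was lower, at 8.21 and 7.33 against 15.2 and 27.9 CPM (log2 fold change -0.98), and ACVR2A was not called at 59.1 and 55.5 against 63.6 and 85.5 CPM. TGFBR3 encodes betaglycan, which presents TGF-beta to TGFBR2. It was at 20.4 and 33.2 CPM in PPDO against 10.3 and 9.07 CPM in ductal-like cells (log2 fold change 1.92, SE 0.34, adjusted p 0.0117, edgeR).

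The BMP antagonists NOG and GREM1 had few UMIs in PPDO. Of 14 secreted antagonists and carriers outside the symbol rule, 5 were called higher and 5 lower (background 22.9% and 20.9%). NOG, which encodes noggin, had 0 and 1 UMI in PPDO 1 and 2, where 3 UMIs, the limit that a count of 0 allows, would be 0.00997 CPM in PPDO 1. Ductal-like cells held 2 and 1 NOG UMIs. GREM1, another BMP antagonist, was called lower on 9 and 3 UMIs in PPDO against 6 and 4 UMIs in ductal-like cells. Extensions held 100% and 67% of its UMIs in PPDO 1 and 2, against 12% and 64% in primary pancreas 1 and 2. The call ended when the replicate number was added to the fit.

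Among the SMAD genes, SMAD1 and SMAD2 were called higher in PPDO, and SMAD7 and SMAD9 lower. SMAD1 was at 98.7 and 79.5 against 63.4 and 60.6 CPM (log2 fold change 0.97, called higher), and SMAD2 at 88.1 and 81.2 against 69.8 and 94.4 CPM (log2 fold change 0.51, called higher with overlapping CPM). SMAD3 was at 164 and 192 against 186 and 162 CPM, SMAD4 at 109 and 102 against 146 and 165 CPM, and SMAD5 at 54.7 and 52.1 against 51.8 and 72.8 CPM, none of them called. SMAD9 was at or under 1.18 CPM in all 4 sums and was called lower in PPDO (log2 fold change -1.42). SMAD7, which inhibits the TGF-beta receptors, was at 1.93 and 2.26 CPM in PPDO and at 9.51 and 9.66 CPM in ductal-like cells (log2 fold change -1.74, SE 0.25, adjusted p 0.00665, edgeR). SMAD6, which inhibits BMP receptors, was at 7.0999 and 4.63 against 11.01 and 9.66 CPM and was not called (log2 fold change -0.38).

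ID genes did not move as a block. ID1 was at 375 and 369 CPM in PPDO and at 48.6 and 12.9 CPM in ductal-like cells, so both PPDO libraries lay above both ductal-like sums (log2 fold change 3.98, SE 0.77, adjusted p 0.0156, edgeR). ID3 was at 44.8 and 40.8 against 9.97 and 1.93 CPM (log2 fold change 3.20, SE 0.85, adjusted p 0.0375, edgeR). ID4 went the other way, at 18.8 and 12.2 against 130.04 and 91.3 CPM (log2 fold change -2.41, SE 0.35, adjusted p 0.00670, edgeR). ID2 overlapped between groups, at 63.1 and 39.8 against 148 and 48.2 CPM, and was not called. The spread of ID1 and ID3 came from the ductal-like sums, and leaving out primary pancreas 1 and 2 in turn gave log2 fold changes of 5.39 and 3.25 for ID1 and of 5.01 and 2.41 for ID3. Leaving out either PPDO library ended the calls of ID1 and ID3, and likewise those of BMP6, GDF9, GDF15, ACVR1, ACVR1B, ACVRL1, ACVR2B, SMAD1, SMAD2 and SMAD9. SMAD7 lost its call without PPDO 1. For ID4, whose call held, the log2 fold change was -1.80 without the EREG-led ductal-like cluster of primary pancreas 1.

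Counted per cell, ID1 was seen in most PPDO cells. After each cell was thinned to 3000 UMIs, 55.3% of PPDO 1 cells and 52.3% of PPDO 2 cells had an ID1 UMI, with exact 95% intervals of 54.3 to 56.4% and 51.2 to 53.5% for counting error only. In ductal-like cells these shares were 11.5% and 3.79%, and in endocrine-like cells of primary pancreas 2 the share was 0.182%. Endothelial-like cells were near PPDO, at 49.0% and 61.0%. Without thinning they were 90.9% and 89.6% in PPDO and 36.7% and 12.8% in ductal-like cells, at a median UMI count per cell of 34176 and 34459 for PPDO and of 17871 and 20559 for the ductal-like class. BMPR1B was seen in 8.52% and 12.1% of thinned PPDO cells, against 2 of 2052 thinned ductal-like cells in primary pancreas 1 and 0 of 1188 in primary pancreas 2, and 0.389% of endothelial-like cells in primary pancreas 1. The thinned shares omit shallower cells, 61 and 10 for PPDO and 113 and 0 for the ductal-like class.

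The next comparison placed each member among the cells of the organ. Each named class with at least 20 cells in both primary libraries was compared with ductal-like cells in 1 edgeR fit with the library as a term, over 16976 genes, of which 40 were members. No member was used to build the classes, whereas the background includes genes that were. Endothelial-like cells had 19 members higher and 6 lower (background 18.3% and 18.3%, 36.6% in all), stellate-like cells 19 and 2 (16.7% and 14.6%, 31.3% in all), immune-like cells 11 and 14 (19.2% and 22.4%, 41.6% in all), endocrine-like cells 7 and 8 (17.4% and 16.1%, 33.4% in all), and acinar-like cells 6 and 5 (9.51% and 15.5%, 25% in all). The median log2 fold change was 1.59 over the members in endothelial-like cells and 1.38 in stellate-like cells, against -0.0057 and -0.11 over all genes. Of the 39 members with values, 13 had their highest class mean in endothelial-like and 12 in stellate-like cells, 6 in ductal-like, 5 in immune-like, 2 in endocrine-like cells and 1 in acinar-like cells. The lower library of that class lay above both libraries of each other class for 24 of the 39, among them 9 of the 13, 8 of the 12 and 2 of the 6. This is 61.5% of the members, against 55.7% of all 13354 genes at the same level, and BMP7, BMPR1B and GDF15 reached that level in PPDO and in none of the 6 classes compared. TMM factors were 0.503 and 0.388 for acinar-like and 1.21 and 1.41 for ductal-like sums, and SMAD1 was called higher in acinar-like cells (log2 fold change 1.13) at a lower CPM, 48.4 and 43.6 against 63.4 and 60.6.

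Ligands had their highest class means in different classes, and GDF9 was the 1 ligand with values that was highest in ductal-like cells, at 12.3 and 11.08 CPM against at most 7.19 CPM in the other 5 classes compared. It was called lower only in endothelial-like and immune-like cells. TGFB1 was highest in immune-like cells, at 209 and 159.8 CPM, followed by endothelial-like cells at 101 and 118 CPM, with log2 fold changes over ductal-like cells of 7.47 (SE 0.53, adjusted p 1.4e-08) and 6.83 (SE 0.52, adjusted p 3.78e-08, edgeR). TGFB2 did not separate stellate-like (73.7 and 66.8 CPM) from endothelial-like cells (71.6 and 45.9 CPM). TGFB3 was highest in stellate-like cells, at 172 and 53.0 CPM there and at most 4.51 CPM in each of the other 5 classes. BMP5 was also highest there, at 141 and 166 CPM against at most 2.74 CPM elsewhere (log2 fold change over ductal-like cells 8.97, SE 0.60, adjusted p 2.03e-08, edgeR). The stellate-like class joined a MYH11- and ACTA2-led cluster with a DCN- and LUM-led one, so its values are sums over unlike cells. BMP5 was at 259.9 and 197 CPM in the MYH11-led cluster, and at 4.19 CPM in the other in primary pancreas 1. BMP4 and BMP2 were also highest in stellate-like cells, at 43.3 and 41.5 CPM and at 22.0 and 46.1 CPM. INHBA, with 62% to 71% of its UMIs in each library from extensions, reached 47.1 and 18.4 CPM and GDF11 9.89 and 18.4 CPM in that class. In primary pancreas 2 the stellate-like class had 48 cells. Its values there rest on 8 UMIs each for INHBA and GDF11, 20 for BMP2 and 23 for TGFB3.

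BMP6 was mainly endothelial-like, at 115 and 119 CPM, with 30.9 and 80.6 CPM in stellate-like cells and at most 3.44 CPM in the other 4 classes. INHBB also was highest in endothelial-like cells, at 10.6 and 24.99 CPM (log2 fold change over ductal-like cells 6.65, SE 0.66, adjusted p 6.98e-07, edgeR). Its PPDO level of 10.5 and 11.6 CPM was near the lower of these, while ductal-like cells were under 0.24 CPM. BMP3 was highest in endocrine-like cells, at 36.1 and 51.5 CPM, against 8.34 and 5.54 CPM in acinar-like cells (log2 fold change over ductal-like cells 6.33, SE 0.61, adjusted p 7.2e-07, edgeR). In endocrine-like cells INS took 377957 and 528010 of each 1000000 UMIs, and the TMM factors were 0.882 and 0.657. BMP7 had its highest class mean in stellate-like cells, from primary pancreas 1 alone (17.4 CPM, against 0 in primary pancreas 2, where 3 UMIs would be 6.91 CPM), and was at 8.86 and 6.35 CPM in ductal-like cells. No class reached the BMP7 level of PPDO.

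**Figure D3:**
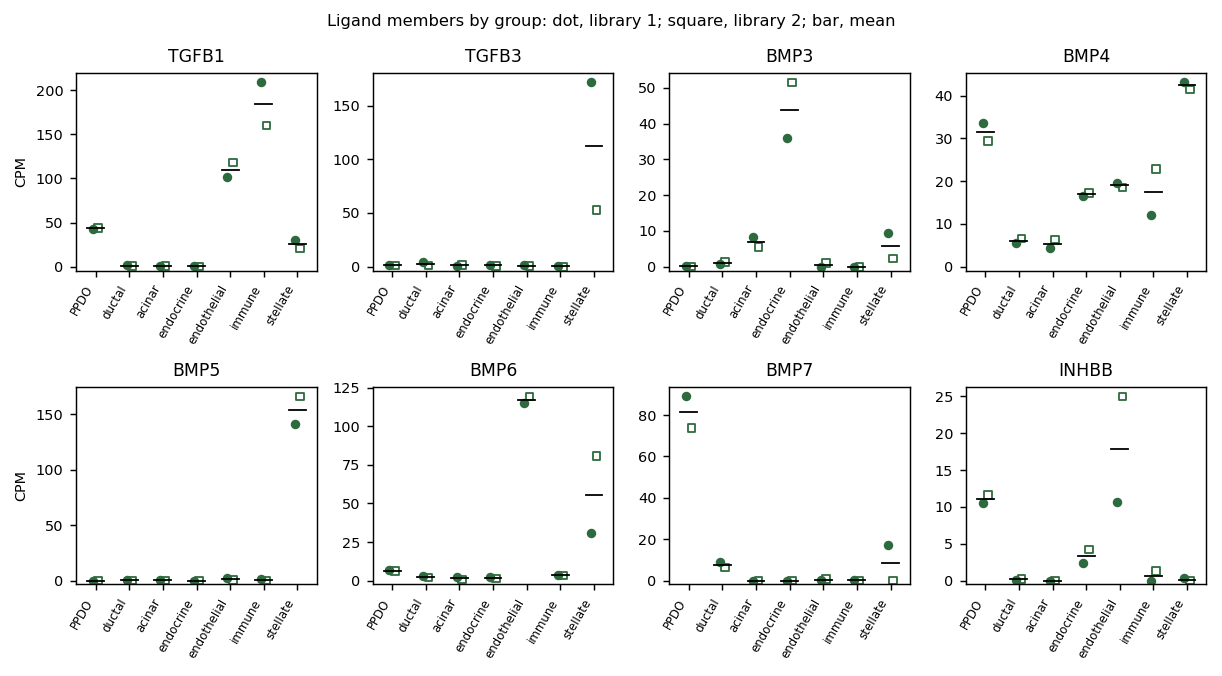
CPM of 8 ligand genes in PPDO and 6 primary classes, with a dot for library 1, a square for library 2 and a bar for their mean. TGFB1 peaks in immune-like, BMP6 in endothelial-like, BMP3 in endocrine-like and BMP5 and TGFB3 in stellate-like cells, whereas BMP7 peaks in PPDO at 89.1 and 73.8 CPM.

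Receptors followed a different order. ACVRL1 was highest in endothelial-like cells at 100.4 and 94.1 CPM, with immune-like cells at 43.6 and 105 CPM, and their libraries overlapped. TGFBR3 was at 238 and 244 CPM in endothelial-like and 200.5 and 173 CPM in stellate-like cells. TGFBR2 was at 312 and 409 CPM in endothelial-like cells, 253 and 156 CPM in immune-like cells and 225 and 138 CPM in stellate-like cells, while endocrine-like cells held 3.55 and 0.412 CPM (log2 fold change against ductal-like cells -5.73, SE 0.62, adjusted p 1.48e-06, edgeR). In PPDO, TGFBR2 lay within the immune-like range. BMPR1A was widespread, from 234 and 274 CPM in ductal-like cells to 23.0 and 33.6 CPM in immune-like cells. ACVR1C, a receptor for nodal and activins, was highest in acinar-like cells at 13.1 and 14.3 CPM, with 5.32 and 1.67 CPM in endocrine-like cells. BMPR1B was low in each of the 6 classes, at most 6.91 CPM, and had no UMI in acinar-like cells, which allows up to 1.19 and 2.38 CPM. The schwann-like cells of primary pancreas 1 held 119 CPM of BMPR1B. They numbered 345 in that library and 1 in the other, so this level had no replicate and was not tested. In the same library TGFBR3 and TGFBR2 were at 323 and 324 CPM in schwann-like cells, above its endothelial-like cells at 238 and 312 CPM.

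Activin receptors ACVR1B and ACVR2B were highest in ductal-like cells by class mean, at 22.6 and 32.5 CPM and at 15.2 and 27.9 CPM, but overlapped with acinar-like cells for ACVR1B (32.2 and 17.4 CPM) and with stellate-like cells for ACVR2B (10.8 and 18.4 CPM). With TMM factors, the fit called ACVR1B higher in acinar-like than in ductal-like cells (log2 fold change 1.42, SE 0.37, adjusted p 0.0101, edgeR). SMAD3 had its highest class mean in ductal-like cells, at 186 and 162 CPM, but was not called against immune-like cells at 127 and 101 CPM (log2 fold change -0.57, adjusted p 0.270, edgeR) or acinar-like cells at 103 and 19.8 CPM (log2 fold change -0.18, adjusted p 0.786, edgeR). It was lower in endocrine-like cells, at 13.0 and 4.72 CPM (log2 fold change -3.73, SE 0.45, adjusted p 5.02e-06, edgeR). PPDO were at 164 and 192 CPM.

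ID1, ID3, SMAD6 and SMAD7 had their highest class mean in endothelial-like cells. ID3 was at 469 and 732 CPM there, and at most 199.6 CPM in the other 5 classes compared. ID1 was at 301 and 419.6 CPM there, with log2 fold changes over ductal-like cells of 7.06 for ID3 (SE 0.80, adjusted p 2e-06) and 4.20 for ID1 (SE 0.66, adjusted p 7.04e-05, edgeR). SMAD6 was at 141 and 171 CPM and at most 13.2 CPM in the other 5 classes, and SMAD7 at 48.2 and 62.6 CPM. ID2 was highest in immune-like cells at 541 and 409 CPM, next to 345 and 278 CPM in endothelial-like cells. ID4 was found in stellate-like (79.9 and 175 CPM) and ductal-like cells (130.04 and 91.3 CPM), whose libraries overlapped, and was under 10 CPM in endothelial-like and immune-like cells. SMAD9 was at 43.8 and 54.3 CPM in endocrine-like, 41.8 and 52.0 CPM in endothelial-like and 43.3 and 36.9 CPM in stellate-like cells, which did not separate, and at most 1.18 CPM in ductal-like cells. The ID1 level of PPDO, 375 and 369 CPM, lay between the 2 endothelial-like libraries, whereas ID3 and SMAD6 of PPDO were lower than in endothelial-like cells in both libraries, at 44.8 and 40.8 CPM and at 7.0999 and 4.63 CPM.

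**Figure D4:**
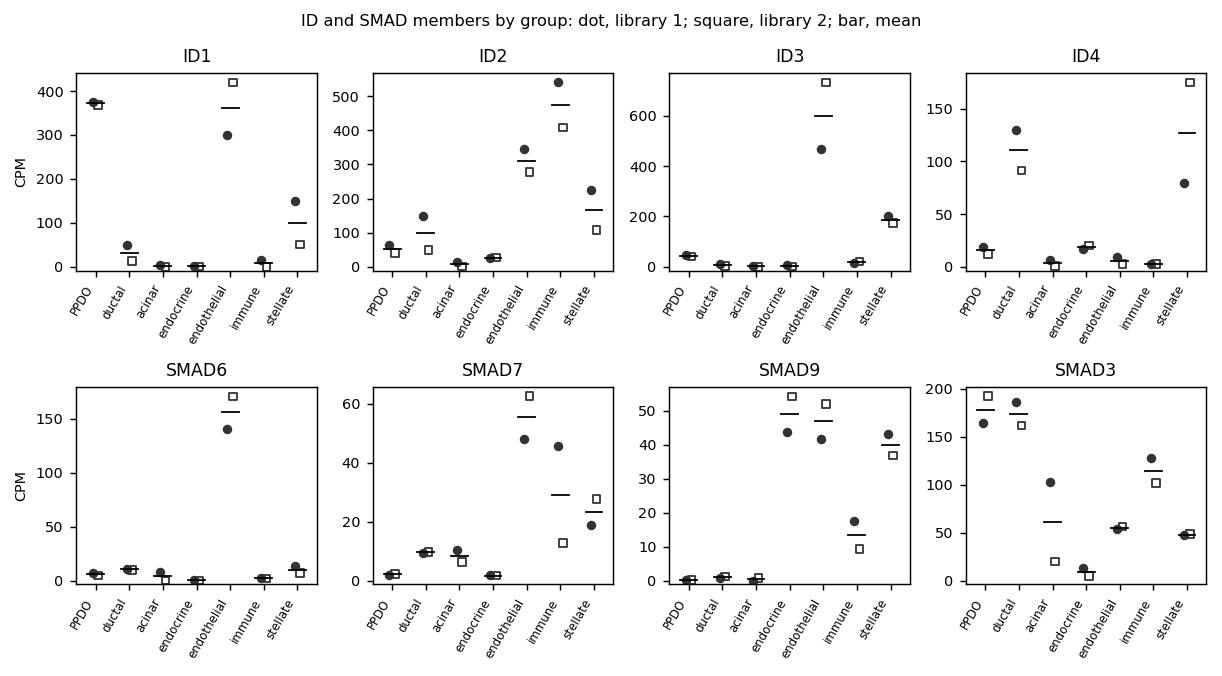
CPM of the 4 ID genes and of SMAD6, SMAD7, SMAD9 and SMAD3 in PPDO and 6 primary classes, with a dot for library 1, a square for library 2 and a bar for their mean. ID1 is high in PPDO and endothelial-like cells, ID3 and SMAD6 in endothelial-like cells, ID4 in ductal-like and stellate-like cells, and SMAD3 in PPDO and ductal-like cells.

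Classes were not uniform, and the clusters within them differed for several members, given here as levels with no test. In the stellate-like class, a cluster led by ITIH4, MYH11, ACTA2 and RGS5 (438 and 41 cells) held BMP5 at 259.9 and 197 CPM and ID4 at 130.1 and 208 CPM, against 4.19 and 21.9 CPM in the DCN- and LUM-led cluster of primary pancreas 1. That second cluster (314 cells, and 7 in primary pancreas 2) held GDF10 at 18.4 CPM, GREM1 at 18.7 CPM and BMP7 at 37.1 CPM in primary pancreas 1, where the MYH11-led cluster had 0.560 CPM of GDF10 and 0.280 CPM of BMP7. TGFB3 was at 263 CPM in the MYH11-led cluster and 66.1 CPM in the other, in the same library. Of the 10 stellate markers, 4 passed in the MYH11-led cluster and 7 in the other. The name stellate-like therefore rests on fewer markers for the MYH11-led cluster. In the endothelial-like class, a cluster led by SEMA3G, TMEM100 and GJA5 had SMAD6 at 206 and 258 CPM, SMAD7 at 129.8 and 160.4 CPM and ACVRL1 at 161 and 211 CPM. SMAD7 ranged from 30.3 to 57.2 CPM in the other endothelial-like clusters, leaving out 1 with 3 cells in primary pancreas 2. TGFBR3 was reversed, at 32.6 and 42.2 CPM in that cluster and between 176 and 285 CPM in those others.

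The immune-like ACVRL1 came from a cluster with AIF1, MARCO and TYROBP among its leading genes (253 and 51 cells), at 156 and 209 CPM, while the GNLY-led and the CCL8-led clusters held at most 3.17 CPM. Its TGFBR3 level was 95.2 and 85.2 CPM. In the endocrine-like class of primary pancreas 2, the cluster led by SST, GCG and PPY held ACVR1C at 25.4 CPM and BMP4 at 57.3 CPM, against 0.224 and 0.281 CPM and 18.9 and 9.76 CPM in the CHGA- and INS-led clusters. In primary pancreas 1, with 55 cells in that cluster, ACVR1C was at 21.3 CPM but BMP4 at 14.2 CPM, under the 17.6 and 16.2 CPM of the others. Among ductal-like clusters, that led by OSGIN1 and EREG, with 1265 cells of primary pancreas 1 and none of primary pancreas 2, held ID4 at 153 CPM and ID2 at 169.7 CPM. A ductal-like cluster of the same library led by SLC47A2 and FTCD held 58.9 and 85.6 CPM. The LGR5- and TCN1-led ductal-like cluster (469 and 17 cells) held SMAD6 at 23.1 and 21.6 CPM and ID3 at 21.0 and 18.9 CPM, above the 10.2 and 4.67 CPM of the SLC47A2-led cluster. Its cells were shallower, with a median of 5560.5 UMIs against 15526. In primary pancreas 1, ACVRL1 was also higher there (7.78 against 0.648 CPM), as was TGFB1 (6.59 against 0.778 CPM), but ID1 was not (29.0 against 30.2 CPM). The part of free RNA in these levels was not tested.

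Within PPDO, 9 of 10 clusters were compared for 26 members, again with no test. The S100A8-led cluster 9, with 37 and 97 cells, was left out for its low cell number. It held SMAD2 at 6.29 and 19.9 CPM, SMAD4 at 10.5 and 12.9 CPM and TGFBR1 at 0 and 3.51 CPM. ID1 was at 346 and 386 CPM in it. Ratios and lowest clusters given here therefore hold for the 9 clusters only. The ratio of the highest to the lowest cluster mean had a median of 2.90 and ranged from 1.38 for TGFBR1 to 21.1 for BMPR1B. For 7 members it was over 5-fold and for another 7 under 2-fold. These ratios were not taken over all genes, so the counts are no result about the members as a list. BMPR1B was at 60.9 and 92.7 CPM in the MOXD1- and LGR6-led cluster 0 and at 2.00 and 5.29 CPM in cluster 7, the ductal-like cluster led by SPP1, CFD and WFDC2 (327 and 187 cells). ID2 was at 150.4 and 171 CPM in cluster 7 and at 16.6 and 13.6 CPM in cluster 6, which is led by DTL and ZNF367. ID2 was not high in cluster 7 alone, since the ADM- and EGLN1-led cluster 4 held 152 and 96.6 CPM. SMAD6 was highest in cluster 7 in both libraries, at 13.5 and 13.4 CPM, and lowest in cluster 3, with KLK7, SPINK5 and DSG1 among its leading genes, at 1.66 and 1.23 CPM.

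TGFB2 was at 11.7 and 10.7 CPM in cluster 0 and at 0.688 and 0.649 CPM in cluster 3. Among the 9 clusters, cluster 3 was the lowest in both libraries for 8 members, TGFB1, TGFB2, GDF15, SMAD2, SMAD4, SMAD5, SMAD6 and ID4. The ADM-led cluster 4 was the lowest for 6, namely BMP1, INHBB, ACVR1, BMPR1A, SMAD1 and SMAD3. INHBB was at 1.11 and 0.975 CPM in cluster 4. Cluster 8, led by EVA1C and CCL2, was the highest for 6 members, ID3, TGFBR3, ACVR2A, SMAD1, SMAD2 and SMAD4. Lowest and highest clusters were not counted over all genes, so these counts describe the members only. ID1 stayed high throughout, from 267 to 436 CPM over all 9 clusters and both libraries. TGFBR2 was at 349 and 314 CPM in cluster 8 and at 60.7 and 89.4 CPM in cluster 4.

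**Figure D5:**
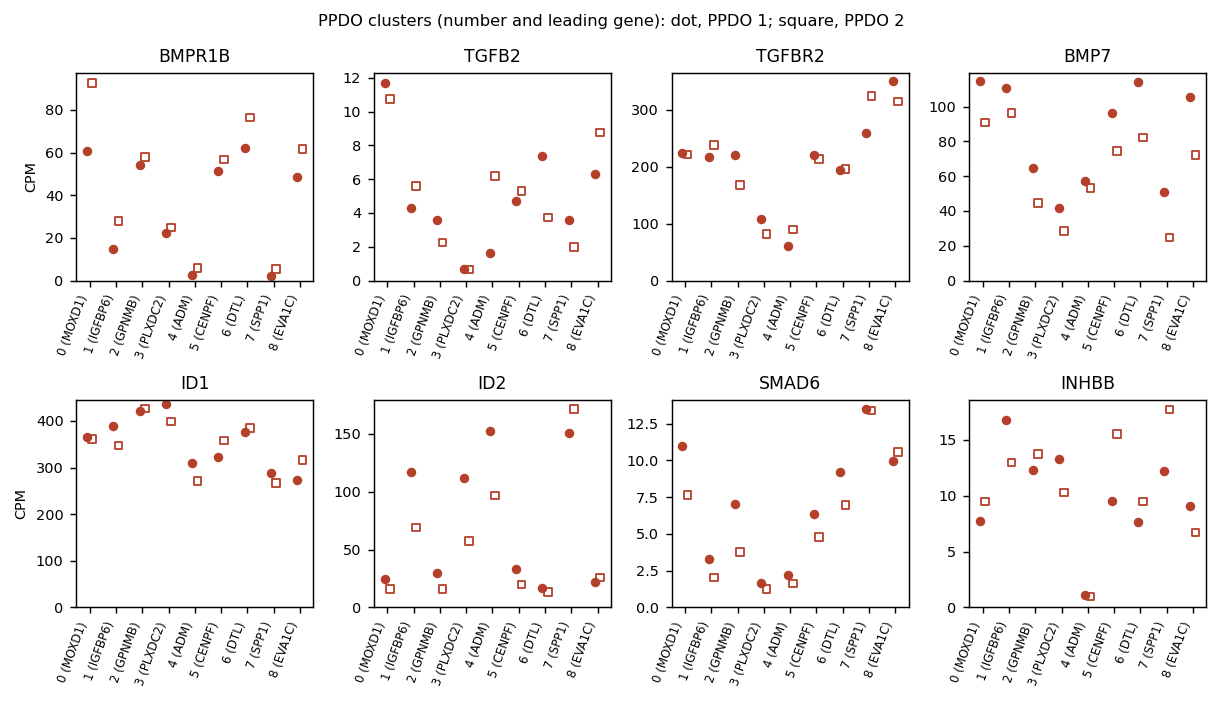
CPM of 8 members in 9 PPDO clusters (number and leading gene on the x axis), with a dot for PPDO 1 and a square for PPDO 2. BMPR1B is low in clusters 4 and 7, ID2 is high in clusters 1, 3, 4 and 7, TGFB2 is lowest in cluster 3, and ID1 is high in all 9.

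When only the ductal-like PPDO cells of cluster 7 were compared with primary ductal-like cells, differences moved both ways. The shared name does not mean equal marker levels. PPDO and primary cells were clustered apart, and a marker had to pass a lower fold in PPDO. Cluster 7 was named on 5 of 7 ductal markers, and its marker levels in CPM are not given here. The 2 sides were therefore not matched for ductal state. BMPR1B had a log2 fold change of 3.24 in place of 7.17, BMP7 2.59 in place of 3.84 and ID1 3.38 in place of 3.98, and these stayed called. TGFBR3 was at -0.15 in place of 1.92 and SMAD9 at 0.12 in place of -1.42, and neither was called. The calls also ended for BMP6 at 1.09, ACVR1 at 0.35, ACVRL1 at -1.22, SMAD2 at 0.18 and ID3 at 2.44. Larger differences were found for ID4 at -3.17, GDF15 at 5.27 in place of 4.34, TGFBR2 at 2.05 in place of 1.69 and ACVR1B at -1.49 in place of -0.91.

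Of 68 further pathway genes outside the symbol rule, 64 were found, 62 tested, 19 called higher and 18 lower in PPDO than in ductal-like cells (background 22.9% and 20.9%, 43.8% in all), with a median log2 fold change of 0.22. The largest called changes at 10 CPM or more fell in both directions. CD109, a TGF-beta coreceptor, was at 93.9 and 105 CPM in PPDO against 4.37 and 3.71 CPM (log2 fold change 5.06), and LTBP1 and LTBP4, which bind latent TGF-beta, had log2 fold changes of 4.12 and 3.28. Genes for latent TGF-beta binding and activation went both ways, with 4 of 9 tested called higher and 3 lower. RUNX2, a transcription factor that partners SMADs, was at 177 and 179 CPM against 9.60 and 18.1 CPM (log2 fold change 4.17). Of 11 SMAD response genes on the list, 3 were called higher and 4 lower. Among them TGFBI and SNAI2 were higher (log2 fold changes 3.48 and 4.69, adjusted p 0.00304 and 0.0125, edgeR), whereas PMEPA1 was lower at 2.20 and 1.15 against 26.2 and 24.6 CPM (log2 fold change -3.49). BAMBI, a decoy receptor, was at 0.229 and 0.389 CPM in PPDO against 14.3 and 6.43 CPM (log2 fold change -4.65). BMPR2 was not called at 106 and 107 against 178 and 205 CPM (log2 fold change -0.38).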

How the data were processed

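The deposited matrices hold uncorrected counts of UMIs by feature and barcode, which the authors made with Cell Ranger (7.1.0 in the file headers) from droplet-based 3′ libraries. The deposited feature and barcode tables hold names, and the submitters' processing notes name Sscrofa11.1. No correction for free RNA was applied here.

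Features of a gene, 3′ extensions included, were summed. Cells were kept by the study's limits, with 1 departure (PPDO at most 3% mitochondrial UMIs and 1000 to 9000 features, primary pancreas under 8%, over 400 features in 1 and over 800 features and 3000 UMIs in 2). The methods give 1 PPDO line a floor of 600 features, but 1000 was used for both, and 600 for both was an alternative that left the counts of called members at 16 and 10. As doublets, 89 and 154 barcodes of primary pancreas 1 and 2 were removed by Scrublet score (over 0.25 and 0.15). No doublets were removed from PPDO. Replicate numbers were read as the sample numbers named with these limits, an assumption. Clustering used Scanpy 1.11.5 (2000 variable genes less the members, 20 components, Leiden resolution 0.5), and classes were named from fixed marker lists, with at least 3 markers. For PPDO, each gene was scaled within each library before clustering. The primary libraries were clustered together with no scaling and no other adjustment between them. The fold that a marker had to pass was set lower for PPDO clusters than for primary clusters.

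Counts were summed per library and class and tested with edgeR 4.0.16 (TMM, filterByExpr, quasi-likelihood test, Benjamini-Hochberg at 0.05 over all genes, group as the only term; library as a further term between primary classes). DESeq2 1.42.0 was an alternative. The common biological coefficient of variation was 0.302 for PPDO against ductal-like cells and 0.279 between primary classes. With 2 against 2 sums an exact two-sided permutation test cannot go below 0.333. Values were given for members with a mean of at least 10 CPM in a group, and for at most 8 pathway genes by size of fold change. BMP10, GDF3, NOG, GREM1 and BMPR2 are outside this rule and were named after their values were seen. Scripts were tested on simulated data. The members and lists were chosen with earlier results of these data known. RefSeq's Sscrofa11.1 table matched all 51 symbols, but its entry for INHBA covers a short span, and it is uncertain that this is the same gene. No sequences are printed, and 1 low member is not reported here.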

Additional observations from a re-analysis of the deposited data

How the results depend on the processing

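The members called higher in PPDO than in ductal-like cells (16) numbered 9 to 17 when a library was left out, and those called lower (10) numbered 2 to 9. Leaving out a PPDO library gave the lowest counts and leaves 1 sum in that group, so the lone sum is assumed to vary like the other group. The lower count was also 6 with only ductal-like PPDO cells, and 5 with the replicate number as a block. The count lower in acinar-like cells (5) was 3 with DESeq2 and 2 with no replicate block. Same-numbered libraries did not deviate together (Pearson r -0.013 across genes) and the labels do not pair them, so the numbers are shared names only. The block ended the calls of ACVR2B, SMAD2 and SMAD9, and those of the low members BMP10, GDF3 and GREM1. Under all 16 alternatives TGFB1, BMP2, BMP4, BMP7, BMP1, INHBB, BMPR1B, TGFBR2 and ID4 were called in the same direction. SMAD2 was called in 8 of them. With only ductal-like PPDO cells, log2 fold changes were -1.10 for TGFB2, -0.074 for ACVR2A, -0.15 for TGFBR3, -0.20 for SMAD5, 0.12 for SMAD9, 0.65 for SMAD6 and 0.93 for ID2. Without TMM factors they were -0.32 for TGFB2, -0.35 for TGFBR1, -0.091 for BMPR1A, -0.38 for ACVR2A and -0.22 for SMAD5. Sums thinned to the smallest gave -0.046 for TGFBR1 and -0.041 for ACVR2A, and keeping doublets gave -0.098 for TGFB2. Without primary pancreas 1 the values were 0.61 for TGFB3, -0.042 for ACVR2A and 0.63 for ID2, and without primary pancreas 2 they were -0.050 for TGFB2 and -0.34 for TGFBR1. Over all libraries left out in turn, the range was -0.050 to 0.25 for TGFB2, -1.59 to 0.61 for TGFB3, -0.34 to 0.58 for TGFBR1, -0.042 to 0.16 for ACVR2A and -1.22 to 0.63 for ID2. Without the EREG-led ductal-like cluster, an alternative chosen after seeing the data, they were 0.026 for TGFB3, -0.0070 for ACVR2A and 0.11 for ID2. Where no value above shows it, the cause was not tested. Values for single genes were compared over members, the pathway genes with values, comparisons and settings. Of these, 1356 were unchanged, 84 lost a call, 12 gained one and 23 changed sign. Unchanged means the same direction and side of the threshold. Folds between primary classes with a primary library left out had no p-value, so only their direction was compared. Depth limits the low end, since 3 UMIs are 6.91 CPM in the stellate-like sum of primary pancreas 2 and 0.00997 CPM in PPDO 1.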
